A study of Mus musculus with 6 samples.

Results

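MiR-708 and miR-28a are small RNAs cut from hairpins in introns of different genes, and their 5p arms begin with the same bases. The rule took 4 rows of the deposited table of 1109 mature microRNAs (miRNAs) by name, namely mmu-miR-708-5p, mmu-miR-708-3p, mmu-miR-28a-5p and mmu-miR-28a-3p, and all 4 had enough reads to be tested. The names were selected on earlier values of these same libraries, the higher miR-708 reads after treatment, and on the seed that miR-28a-5p shares. The difference between the groups is therefore given for the 4 arms as a description, and no test of it is read as evidence.

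Small RNA was sequenced from RAW 264.7 cells, a macrophage-like line from a male mouse. The oxLDL group held 3 libraries of cells exposed for 48 h to ox-LDL, an oxidized form of low-density lipoprotein whose uptake loads macrophages with lipid (foam cells). The control group held 3 libraries of the same line left without treatment, with columns that carry the time 0 h, and treatment therefore cannot be told apart from time in culture. The labels name no dose, no batch and no separate cultures, so any spread between libraries of a group may be technical.

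Each miRNA hairpin can yield a 5p and a 3p arm, and a mature arm finds its target messages mainly through its seed, bases 2 to 8. Arms with the same seed are counted as one family because they can pair with the same target sites. MiR-708 lies in the teneurin gene Tenm4 and has been described in mouse cells as induced together with its host by CHOP, a transcription factor of the unfolded protein response. MiR-28 lies in Lpp, a gene for a protein of cell contacts, and its 5p arm has been described in human cells as a repressor of NRF2, the regulator of antioxidant genes.

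The mature sequences are shown because the grouping rests on them. RefSeq (GRCm38.p6) held all 4, written here 5′ to 3′ with the seed in capitals.
miR-708-5p: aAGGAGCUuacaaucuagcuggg
miR-28a-5p: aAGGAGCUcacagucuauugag
miR-708-3p: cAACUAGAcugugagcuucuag
miR-28a-3p: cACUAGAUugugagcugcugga
The 5p arms were identical over the first 8 bases from the 5′ end and at 16 of the 22 positions compared. The 3p arms did not share a seed, and lined up from their 5′ ends only 2 of 22 positions were identical. Of the 957 table entries with a RefSeq mature sequence, 2 had the seed of the 5p arms, and these were miR-708-5p and miR-28a-5p themselves. No other of these 957 entries had the seed of either 3p arm.

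The 3p arms nevertheless held a common stretch of 8 bases outside the seed, in capitals here, at bases 10 to 17 of miR-708-3p and 9 to 16 of miR-28a-3p.
miR-708-3p: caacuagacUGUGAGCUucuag
miR-28a-3p: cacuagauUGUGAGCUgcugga
On GRCm38 the miR-708 hairpin spans chr7:96249424-96249532 on the plus strand, in an intron of Tenm4, with the 5p arm at chr7:96249450-96249472 and the 3p arm at chr7:96249496-96249517. The miR-28a hairpin spans chr16:24827855-24827940 on the plus strand, in an intron of Lpp, with the 5p arm at chr16:24827868-24827889 and the 3p arm at chr16:24827908-24827929. Both hairpins lie on the strand of their host gene.

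The deposited values are estimated reads per entry. Totals ran from 5502826 to 6572485 reads in oxLDL and from 6570095 to 7373185 in control, and levels are given as CPM (reads per 1000000 reads of the library) after TMM scaling, edgeR's correction for library composition. The macrophage markers miR-223-3p, miR-142a-5p, miR-142a-3p and miR-21a-5p summed to 172600 to 191400 CPM in oxLDL and 163300 to 182000 CPM in control. All 19 markers of other cell types were listed in the table, and their sum ran from 2715 to 5820 CPM in oxLDL and from 4152 to 7108 CPM in control. Of the 16 that could be tested, 2 were called higher and 4 lower, beside 21.7% higher and 24.0% lower of all tested entries. The epithelial sum was higher in every oxLDL library (112.9 to 128.4 CPM) than in any control (76.7 to 110.3 CPM). The erythroid and endothelial sums were lower in every oxLDL library, and the sums of the other lists overlapped. The part of these markers in the results on miR-708 and miR-28a was not tested. In bulk RNA a change in the makeup of the cells and a change of RNA within each cell cannot be told apart.

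Both miR-708 arms were about 6 times higher after ox-LDL, and both miR-28a arms were lower on average. MiR-708-5p, the arm with the shared seed, had 893, 765 and 700 reads in the 3 oxLDL libraries and 187, 169 and 157 reads in the 3 controls. Every oxLDL library stood well above every control, and neither group held a library far from its others. After scaling this was 136.5 ± 26.1 CPM in oxLDL and 23.1 ± 2.18 CPM in control (SD, n = 3 each), or 5.90 times higher (log2 fold change 2.56, SE 0.192, from edgeR's fit over all tested entries).

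MiR-708-3p, the other arm of that hairpin, had 367, 392 and 370 reads in oxLDL and 82, 78 and 76 reads in control. The groups again stood apart, and within each the libraries were close together. Its level was 65.0 ± 3.13 CPM in oxLDL and 10.6 ± 0.503 CPM in control (SD, n = 3 each), 6.10 times higher (log2 fold change 2.61, SE 0.153).

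MiR-28a-5p, the arm that shares the seed, had 402, 486 and 1115 reads in oxLDL and 1724, 1575 and 1487 reads in control. OxLDL replicates 1 and 2 were far below the controls, while oxLDL replicate 3 came close to them without reaching the lowest. In CPM the oxLDL libraries were at 74.9, 79.8 and 187.4, and the controls at 235.9, 208.5 and 203.0. The means were 114.0 ± 63.6 CPM in oxLDL and 215.8 ± 17.6 CPM in control (SD, n = 3 each), a log2 fold change of -0.92 (SE 0.342). Without oxLDL replicate 3 the log2 fold change was -1.48.

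MiR-28a-3p had 830, 718 and 665 reads in oxLDL and 1076, 1313 and 1275 reads in control. At 154.6, 117.9 and 111.8 CPM in oxLDL and 147.2, 173.8 and 174.0 CPM in control, the groups overlapped, since oxLDL replicate 1 lay above control replicate 1. The means were 128.1 ± 23.2 CPM in oxLDL and 165.0 ± 15.4 CPM in control (SD, n = 3 each), a log2 fold change of -0.37 (SE 0.171). Without oxLDL replicate 1 it was -0.55, and without oxLDL replicate 3, which stands apart in the 5p arm, -0.28.

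**Figure D1:**
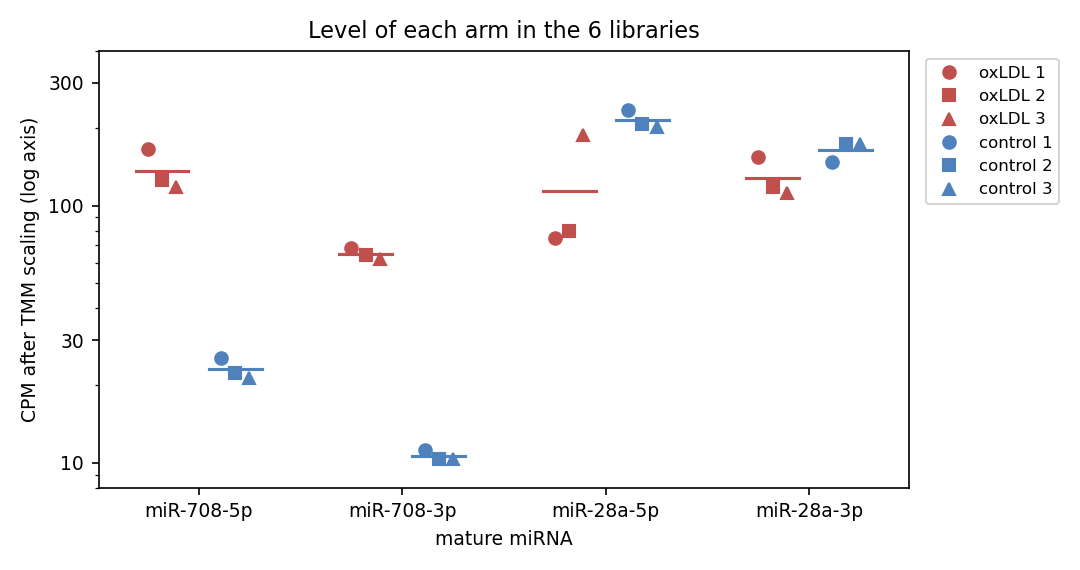
Level of each of the 4 arms in the 6 libraries, in CPM after TMM scaling on a log axis, with oxLDL libraries in red left of the controls in blue, 1 symbol per replicate number and a bar at each group mean. Both miR-708 arms lie far higher in oxLDL, at means of 136.5 and 65.0 CPM, against 23.1 and 10.6 CPM in control, and oxLDL replicate 3 of miR-28a-5p, at 187.4 CPM, lies near the controls.

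Over the whole table, 217 of 475 tested entries (45.7%) were called at 0.05 by edgeR (quasi-likelihood F test, Benjamini-Hochberg adjusted), 103 of them higher (21.7%) and 114 lower (24.0%). Both miR-708 arms were among the 103, and neither miR-28a arm was called. With this contrast known when the arms were picked, nothing is read from those counts. The call of miR-28a-5p depended on the setting, since it passed as lower in DESeq2, in limma-voom and in 5 other of 14 settings. These passes are not read as evidence of a fall either. Groups did not overlap for 3 of the 4 arms, 2 of them higher and 1 lower, and for 59.4% of all tested entries (28.2% higher and 31.2% lower). By log2 fold change miR-708-3p was in place 11 and miR-708-5p in place 12 of 475, with miR-28a-3p in place 296 and miR-28a-5p in place 386.

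These directions are relative to the scaling. Over the tested entries the log2 fold change had a median of -0.13, and of -0.28 with library totals alone. Of all calls, 47.5% were higher. That share was 34.2% when libraries were scaled by their totals only (82 of 240 calls) and 58.7% when the median entry was set to no change (131 of 223 calls). The log2 fold change of miR-708-5p was 2.42 with library totals and 2.69 after centring, and that of miR-28a-5p was -1.07 with library totals and -0.79 after centring, so the sign of neither turned.

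**Figure D2:**
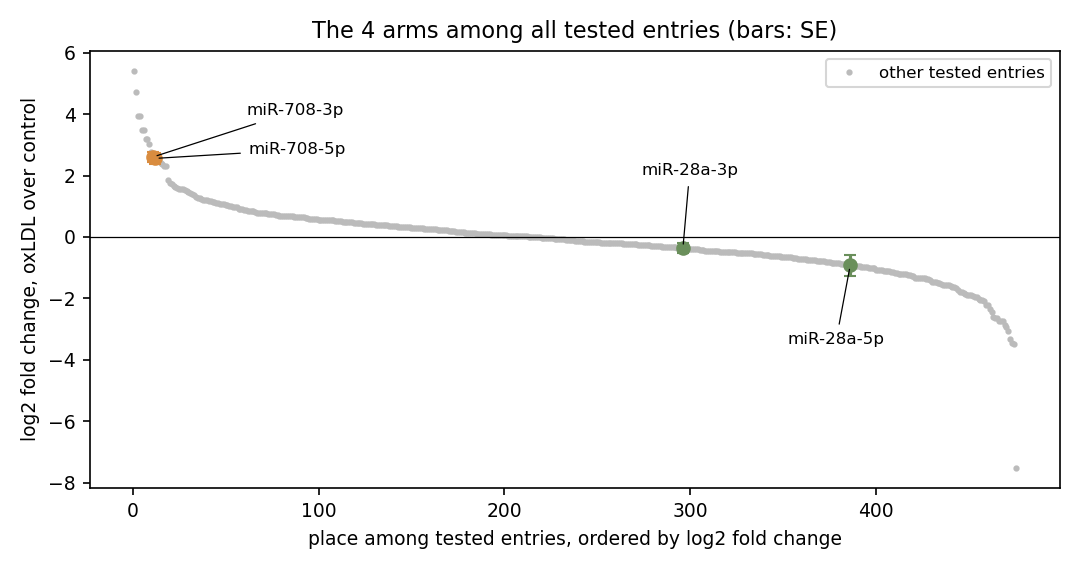
Log2 fold change (oxLDL over control) of the 475 tested entries, ordered from the highest to the lowest, with the 4 arms marked and their SE as bars. The miR-708 arms sit side by side in places 11 and 12, and the miR-28a arms lie in the lower part, in places 296 and 386.

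The entries next to miR-708-5p in that order were all of lower level. Next above miR-708-3p came miR-7033-5p (log2 fold change 2.76, SE 0.408, at 8.08 CPM in oxLDL and 1.18 CPM in control) and miR-709 (3.02, SE 0.508, at 4.50 CPM in oxLDL and 0.541 CPM in control). Next below came miR-3473a (2.50, SE 0.303), miR-1291 (2.48, SE 0.225) and miR-1949 (2.42, SE 0.208). Around miR-28a-5p stood the abundant miR-125a-5p (-0.89, SE 0.112), miR-101b-5p (-0.89, SE 0.283) and miR-7650-5p (-0.90, SE 0.362) above, and miR-28c (-0.92, SE 0.342), miR-411-5p (-0.93, SE 0.300) and miR-375-3p (-0.94, SE 0.599) below.

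The reads of the 2 arms that share a seed were then summed in each library. The sums of the groups differed by less than the spread between libraries, while their makeup differed by far more than it. MiR-708 was picked for its higher reads in oxLDL, so the difference in makeup follows in part from that choice. The pool stood at 241.2, 205.4 and 305.1 CPM in oxLDL and at 261.5, 230.9 and 224.4 CPM in control. The groups overlapped, with the lowest library (replicate 2) and the highest (replicate 3) both in oxLDL. The means were 250.6 ± 50.5 CPM in oxLDL and 238.9 ± 19.8 CPM in control (SD, n = 3 each). Their difference of 11.7 CPM was smaller than the SD of either group. It joins a mean of miR-708-5p that was 113.4 CPM higher in oxLDL with a mean of miR-28a-5p that was lower by 101.8 CPM. The entry miR-28c, whose seed was not checked, is left out of this pool. With it the means were 307.6 ± 80.4 CPM in oxLDL and 346.8 ± 28.5 CPM in control (SD, n = 3 each). The groups overlapped there too.

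Fitted as 1 entry, the pool had a log2 fold change of 0.06 (SE 0.169), which turned to -0.08 with library totals alone and to -0.10 without oxLDL replicate 3. The size of the SE leaves modest changes of the pool in either direction undetectable with 3 libraries a group. Adaptors join some RNA ends more readily than others, so a sum of reads of different miRNAs is not a sum of molecules.

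MiR-708-5p made up 69.0% of the pool reads in oxLDL replicate 1 (Wilson 95% interval 66.4 to 71.4%), 61.2% in replicate 2 (58.4 to 63.8%) and 38.6% in replicate 3 (36.4 to 40.8%). In the controls it made up 9.79% (8.53 to 11.2%), 9.69% (8.39 to 11.2%) and 9.55% (8.22 to 11.1%). The controls were nearly identical, and all 3 oxLDL libraries lay above them and differed among themselves beyond counting error. The mean share was 56.2 ± 15.8% in oxLDL and 9.68 ± 0.118% in control (SD, n = 3 each), a difference of 46.6 percentage points, and 55.4 points without oxLDL replicate 3. These intervals cover counting error only, because reads amplified by PCR without molecular identifiers are not independent molecules.

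**Figure D3:**
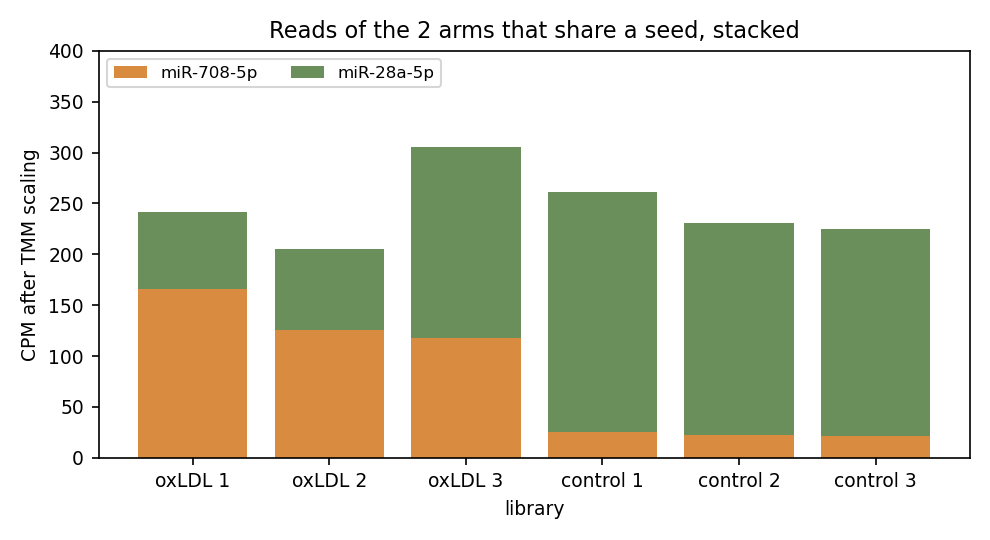
Reads of the arms that share a seed in each library, in CPM after TMM scaling, with miR-708-5p (orange) at the bottom and miR-28a-5p (green) stacked on it, oxLDL libraries left of controls. The full bars stand between 205.4 and 305.1 CPM in oxLDL and between 224.4 and 261.5 CPM in control, and the orange part takes 38.6 to 69.0% of the reads in oxLDL and under 10% in each control.

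The ratio of the arms within a library needs no scaling between libraries. For each read of miR-28a-5p there were 2.22, 1.57 and 0.628 reads of miR-708-5p in the oxLDL libraries, and 0.109, 0.107 and 0.106 in the controls. Thus miR-708-5p had more reads than miR-28a-5p in 2 of 3 oxLDL libraries and fewer in all 3 controls. Between the 3p arms, which have different seeds, the ratio of miR-708-3p to miR-28a-3p was 0.442, 0.546 and 0.556 in oxLDL and 0.0762, 0.0594 and 0.0596 in control. It was higher in every oxLDL library, and oxLDL replicate 3 did not stand apart there.

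Summed over both arms, the miR-708 hairpin had 234.7, 190.0 and 179.8 CPM in oxLDL and 36.8, 32.7 and 31.8 CPM in control. The miR-28a hairpin had 229.5, 197.7 and 299.2 CPM in oxLDL and 383.1, 382.3 and 377.0 CPM in control. In neither hairpin did the groups overlap, and they did not overlap for 59.4% of all tested single entries. That share was not computed for summed hairpins, and for miR-28a-3p alone the groups overlapped. The mean of the miR-28a hairpin was 242.1 ± 51.9 CPM in oxLDL and 380.8 ± 3.32 CPM in control (SD, n = 3 each).

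The share of reads on the 5p arm varied little for miR-708 and widely, within oxLDL, for miR-28a. Of the miR-708 reads, 70.9, 66.1 and 65.4% lay on the 5p arm in oxLDL and 69.5, 68.4 and 67.4% in control, and the groups overlapped. The log2 ratio of 5p to 3p reads (pseudocount 0.5) was lower by 0.06 in oxLDL for miR-708, and 8 of the 126 hairpins with both arms tested shifted by less. The median absolute shift over those hairpins was 0.55. Both arms were at least 2 times higher for 3 hairpins, miR-708, miR-183 and miR-362, and at least 2 times lower for 6. Both were at least 4 times higher for miR-708 alone. As miR-708 was picked for its higher reads in this contrast, nothing is read from its place there. Across the 6 libraries the log2 CPM of the miR-708 arms had a Pearson r of 0.995, given as a description, since the libraries of each group share the treatment and each library its depth.

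For miR-28a the 5p arm held 32.6% (Wilson 95% interval 30.1 to 35.3%), 40.4% (37.6 to 43.2%) and 62.6% (60.4 to 64.9%) of the reads in oxLDL, and 61.6, 54.5 and 53.8% in control. Replicates 1 and 2 of oxLDL lay below all controls, while replicate 3 lay above all of them, so the groups overlapped. The mean share was 45.2 ± 15.6% in oxLDL and 56.7 ± 4.28% in control (SD, n = 3 each). The log2 ratio of 5p to 3p reads was lower by 0.68 in oxLDL, and 55 of the 126 hairpins shifted by more. That shift rested on single oxLDL libraries, since the ratio was lower by 1.19 without oxLDL replicate 3 and by 0.30 without oxLDL replicate 1. The r between the miR-28a arms over the 6 libraries was 0.305, given as a description. Within oxLDL and within control the levels of these arms ran in opposite order over the libraries. The positive sign thus comes from the lower means of both arms in oxLDL.

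**Figure D4:**
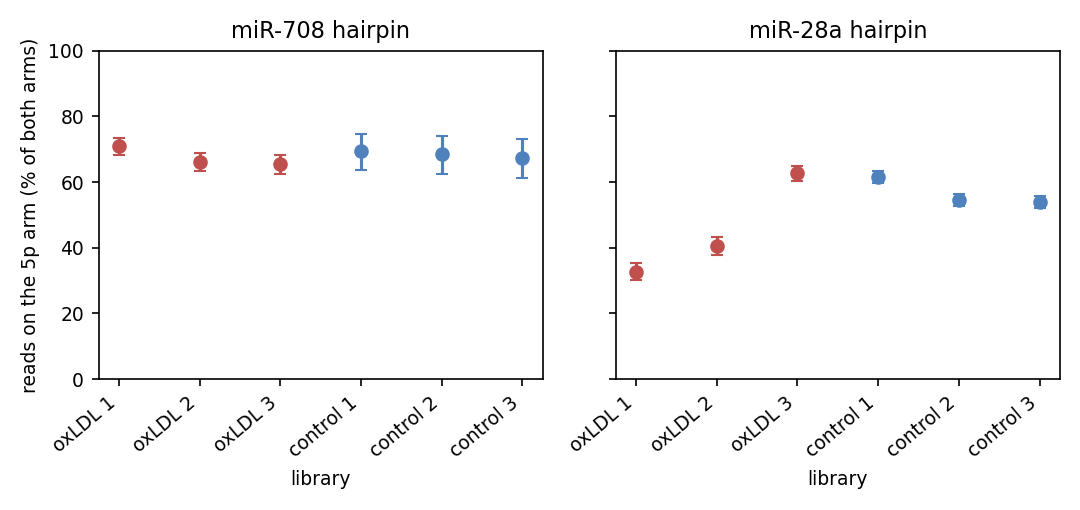
Share of a hairpin's reads that lay on its 5p arm, in percent, for miR-708 (left) and miR-28a (right) in each library, oxLDL (red) left of control (blue), with Wilson 95% intervals as bars. The miR-708 shares stay between 65.4 and 70.9%, whereas the miR-28a share is 32.6 and 40.4% in oxLDL replicates 1 and 2 and 62.6% in replicate 3.

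OxLDL replicate 3 was set beside the other oxLDL libraries for each arm. Its level of miR-28a-5p was 2.42 times the mean of oxLDL replicates 1 and 2, a ratio reached by 9 of the 475 tested entries (1.89%, miR-28a-5p included). The same ratio was 0.820 for miR-28a-3p, 0.806 for miR-708-5p and 0.937 for miR-708-3p, and its median over tested entries was 0.986. The high value in this library was thus a feature of the 5p arm of miR-28a and of few other entries, and not of the miR-708 arms.

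**Figure D5:**
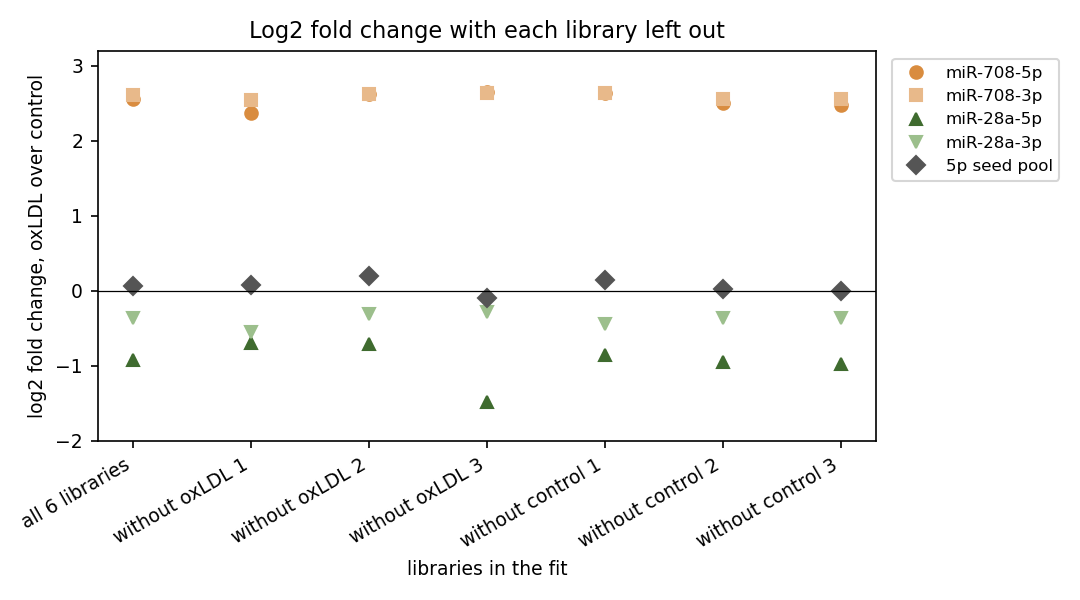
Log2 fold change (oxLDL over control) of the 4 arms and of the 5p seed pool with all 6 libraries and with each library left out in turn. The miR-708 arms stay between 2.37 and 2.65, miR-28a-5p moves to -1.48 without oxLDL replicate 3, and the pool turns from 0.06 to -0.10 there.

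Relatives of miR-28a were compared next. The entry miR-28c, whose hairpin lies at chr15:53614205-53614279 on the minus strand in an intron of Samd12, had 201.5, 243.5 and 555 reads in oxLDL and 861, 790 and 742.5 reads in control. Its reads were 0.501, 0.501 and 0.498 of those of miR-28a-5p in oxLDL and 0.499, 0.502 and 0.499 in control. The ratio was nearly the same in every library, some values held fractions of a read, and the sources used here do not say how the authors divided reads that match several entries. Whether the miR-28a-5p reads came from the hairpin in Lpp or the one in Samd12 is therefore uncertain. The RefSeq sequences used held none for miR-28c, so whether it has the shared seed was not checked. With miR-28c added to the seed pool the log2 fold change was -0.19 (SE 0.188). MiR-708-5p then made up 46.8 ± 15.6% of that pool in oxLDL and 6.67 ± 0.0831% in control (SD, n = 3 each).

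The relative miR-28b, which has another seed, had 1 read in oxLDL replicate 3 and none in the other 5 libraries.

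MiR-151, from an intron of the focal adhesion kinase gene Ptk2 (hairpin at chr15:73254815-73254882, minus strand), is grouped with miR-28 by its hairpin. MiR-151-5p had 1863, 1932 and 3525 CPM in oxLDL and 4101, 3112 and 3709 CPM in control. Here oxLDL replicates 1 and 2 lay below all controls and replicate 3 lay among them, whereas all 3 oxLDL libraries of miR-28a-5p lay below the controls. Its log2 fold change was -0.58 (SE 0.249, edgeR adjusted p = 0.0875). In fits run after the values were seen, it was -0.95 without oxLDL replicate 3 (edgeR adjusted p = 0.00321). With any other library left out it ran from -0.69 to -0.42 and did not pass (edgeR adjusted p from 0.106 to 0.268). MiR-151-3p stood at 6121 ± 749 CPM in oxLDL and 6898 ± 343 CPM in control (SD, n = 3 each) and did not pass (log2 fold change -0.17, edgeR adjusted p = 0.232).

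Of these relatives 3 were tested and 0 passed in edgeR's test after adjustment. Over all 475 tested entries 217 passed (45.7%). At an unadjusted p of 0.05 the count was 2 relatives and 271 entries in all, in DESeq2 1 and 200, and in limma-voom 1 and 219. With library totals alone 3 relatives passed as lower, among 240 calls in all. As miR-28c follows miR-28a-5p, it adds no measurement of its own.

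The entries whose pattern was most like that of an arm were taken as those with the highest Pearson r of log2 CPM over the 6 libraries, members left out. For miR-708-5p these were miR-210-3p, the miRNA best known from hypoxia (r 0.996), miR-101a-3p (0.995), miR-101c (0.995), miR-5107-5p (0.993) and miR-26b-5p (0.993). All 5 were higher in oxLDL, with log2 fold changes from 0.69 for miR-26b-5p to 4.73 for miR-5107-5p. The level of miR-210-3p was 1460 ± 221 CPM in oxLDL and 456.4 ± 30.3 CPM in control (SD, n = 3 each). An r of at least 0.95 with miR-708-5p was reached by 53 entries, so these 5 do not stand apart. MiR-101c averaged 2116 CPM in oxLDL and 1234 CPM in control, beside 4182 CPM in oxLDL and 2429 CPM in control for miR-101a-3p, and its reads may be shared with that entry.

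For miR-28a-5p the most alike were miR-28c (r rounding to 1), miR-151-5p (0.976), miR-5134-3p (0.972), miR-3061-3p (0.968) and miR-3066-3p (0.958), and these 5 were all that reached 0.95. The last 3 had means under 10 CPM in both groups, and miR-5134-3p had 1, 1 and 5 reads in oxLDL and 13, 11 and 13 reads in control. Such an r rests largely on the difference between the groups and on oxLDL replicate 3, so no common control is read from it. Between miR-708-5p and miR-28a-5p r was -0.812, given as a description, since the arms were picked with this contrast known. Over the controls alone the levels of both arms ran in the same order, and over the oxLDL libraries in opposite order.

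Because miR-708 has been linked with the unfolded protein response, the response to misfolded protein in the endoplasmic reticulum, 19 other miRNAs linked with that response were listed. Of these 15 could be tested, 2 rose and 7 fell, and 6 did not pass edgeR's test. That is 60.0% called, against 45.7% of all tested entries, and the median log2 fold change was -0.42, against -0.13 over all tested entries. The counts were 1 higher and 8 lower with library totals, and 4 higher and 5 lower after centring on the median entry.

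The 4 largest changes in the list were falls. MiR-214-3p, described as a repressor of XBP1 in human cells and also a mesenchyme marker, had 17, 15 and 7 reads in oxLDL and 92, 92 and 88 reads in control (log2 fold change -2.44, SE 0.306, edgeR adjusted p = 0.000505). MiR-204-5p, which shares its seed with the PERK-induced miR-211, had 6, 4 and 4 reads in oxLDL and 21, 40 and 31 reads in control (log2 fold change -2.33, edgeR adjusted p = 0.00185). In both miRNAs every oxLDL library held fewer reads than any control. MiR-222-3p was at 11940 ± 2190 CPM in oxLDL and 30070 ± 4445 CPM in control (SD, n = 3 each; log2 fold change -1.33, edgeR adjusted p = 0.000505). MiR-30c-2-3p, described as a repressor of the transcription factor XBP1, was at 87.1 ± 12.9 CPM in oxLDL and 194.1 ± 39.3 CPM in control (SD, n = 3 each; log2 fold change -1.16, edgeR adjusted p = 0.00241). The miR-708 arms were higher in oxLDL, while these 4 were lower. No expected direction was set for the miRNAs of the list, and whether the response itself changed was not tested. The entries miR-29a-3p (log2 fold change 0.51, edgeR adjusted p = 0.00384) and miR-93-5p (0.34, edgeR adjusted p = 0.0165) rose, the count falling to 1 without oxLDL replicate 2 or control replicate 1. The 4 entries not tested, miR-211-5p, miR-346-5p, miR-216b-5p and miR-96-5p, had at most 4 reads in any library.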

How the data were processed

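The 1 deposited table holds unscaled estimated counts for each mature mouse miRNA. Trizol RNA was size-selected on a gel, joined to adaptors and sequenced as cDNA on an Illumina instrument, per the labels' protocols. The submitters' processing notes name the build GRCm38.p5, and aligner, counter and database version are not given in the sources used here. Of the entries, 40 held fractions of a read (tolerance 1e-06). Column names gave each sample's group and number. Counts were rounded and tested with edgeR 4.0.16 (R 4.3.3), using the quasi-likelihood test, TMM factors, edgeR's filter by group and Benjamini-Hochberg adjustment at 0.05. A chi-square test set every pair of libraries within a group apart, at 121.3 per degree of freedom or above.

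The members, the lists and the rule for named miRNAs were chosen with earlier results of these data known. The rule takes the 4 arms, other miR-28 relatives, the 4 largest changes of the unfolded protein response list, the 5 most alike entries by r (log2 CPM, prior count 2), the 3 neighbours on each side in log2 fold change, and cell type markers. MiR-29a-3p and miR-93-5p were named after their values were seen. Alternatives were RLE factors, library totals, median centring, other filters, a replicate block, each library left out, DESeq2 1.42.0, limma-voom (limma 3.58.1), another arm pseudocount and other pools. The edgeR step was tested on simulated data. Sequences are from RefSeq and hairpin positions from GENCODE M21 (GRCm38).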

Additional observations from a re-analysis of the deposited data

How the results depend on the processing

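Over the 14 alternatives the log2 fold changes of the miR-708 arms, picked on this contrast and so no sign of stability, ran from 2.37 to 2.69 for miR-708-5p and from 2.46 to 2.74 for miR-708-3p. MiR-28a-5p, not called with the settings used (-0.92), was called lower with library totals alone (-1.07), with a mean of at least 10 CPM (-1.03), with no filter (-0.90), with DESeq2 (-0.87) and limma-voom (-1.05), and ranged from -1.48 to -0.70 with 1 library left out, called without oxLDL replicate 3. MiR-28a-3p was called with a mean of at least 10 CPM (-0.48) and without oxLDL replicate 1, and ranged from -0.55 to -0.28 with 1 library left out. The log2 fold change of the seed pool (0.06) turned to -0.081 with library totals alone, -0.035 with a mean of at least 10 CPM and -0.19 with miR-28c added, which was chosen after seeing the data, and ranged from -0.10 to 0.19 with 1 library left out. Among the 957 entries with a RefSeq mature sequence, the pool of every entry with the same seed held the same 2 arms. No call of an arm is read as evidence, and the cause of these moves was not tested.

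The labels link the groups only by replicate numbers. The deviations of same-numbered libraries from their group means had correlations of -0.297, -0.228 and -0.117, and no library correlated best with its own number. With so few libraries the deviations within a group constrain each other, so these correlations cannot decide whether same-numbered libraries were paired. With a replicate block the log2 fold change was 2.55 for miR-708-5p, 2.61 for miR-708-3p, -1.06 for miR-28a-5p (called), -0.38 for miR-28a-3p and 0.04 for the seed pool, and 87 entries were called higher and 91 lower. In the unfolded protein response list the block gave 1 higher, and among the miR-28 relatives 2 lower.

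In other settings, run on the lists after seeing the data, the unfolded protein response list had 1 entry called higher with library totals alone or no filter, 4 with median centring, and 1 to 2 with 1 library left out. The miR-28 relatives called lower numbered 3 with library totals alone, 2 unfiltered, 1 each with a mean of at least 10 CPM, DESeq2 and limma-voom, and 0 to 2 with 1 library left out. Over all entries 82 to 101 were called higher and 79 to 113 lower with 1 library left out. Depth limits the miR-708 arms in control, where miR-708-3p rests on 76 to 82 reads a library.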

Other observations

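Besides miR-28a-5p and miR-28c, 11 tested entries had a level in oxLDL replicate 3 at least 2 times the mean of the other oxLDL libraries. Only 4 of the 13 averaged at least 10 CPM in oxLDL, namely miR-28a-5p, miR-28c, miR-9-5p and miR-6238, chosen here after their values were seen. MiR-9-5p had 96, 120 and 252 reads in oxLDL and 236, 350 and 151 reads in control. MiR-6238 had 70, 848 and 1210 reads in oxLDL and 361, 376 and 1691 reads in control, so its libraries differed widely within both groups. The liver miRNA miR-122-5p had 13, 12 and 71 reads in oxLDL and 136, 647 and 37 reads in control.

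The bases of the shared 5p seed also occur, away from the seed position, in the RefSeq sequences of miR-339-5p and miR-7663-3p among the table's entries, and in miR-28b. MiR-339-5p was at 762.8 ± 24.5 CPM in oxLDL and 722.5 ± 102 CPM in control (SD, n = 3 each; log2 fold change 0.08). MiR-7663-3p averaged 1.03 CPM in oxLDL and 2.07 CPM in control.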
